A study of Sus scrofa with 12 samples.

Results

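Cytosolic ribosomal protein genes encode the protein part of the ribosome outside mitochondria. They were taken as the genes whose pig symbol is RPL or RPS followed by a number, with an optional A, L, X or Y suffix, together with RPLP0, RPLP1, RPLP2 and RPSA, and without the RPS6K kinases. The rule found 48 of 24358 gene IDs. Of these, 24 belong to the small subunit, 18 to the large subunit and 3 to the stalk of acidic proteins (the P stalk), and 3 are paralogues: RPL3L and RPL10L, known for expression in few tissues, and RPS27L. Many further ribosomal protein genes, among them RPS6, RPL13A and RPS14, were not analysed here. The genes analysed were 24 of the 31 listed for the small subunit and 18 of the 43 listed for the large. Sums and ratios below therefore cover only part of each subunit.

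The study measured RNA from subcutaneous fat of the mid-back of wild-type pigs. The groups were Guangdong small-eared pigs at 80 d (GS_80d), Yorkshire pigs at 80 d (YK_80d), Guangdong small-eared pigs at 9 d (GS_9d) and Yorkshire pigs at 9 d (YK_9d), with 3 libraries each and 12 in all. Guangdong small-eared is a Chinese local breed and Yorkshire a Western commercial breed. The labels give adipocyte as the cell type, but the source is whole adipose tissue, and they do not say that the samples came from separate animals, so the p-values reflect how far these samples differ and no more, and that may be technical variation.

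Totals ran from 45435480 to 60993349 count units per library. Adipocyte genes were abundant throughout: 12 of the 15 on the list were in the table, none was at 0 in a whole group, and ADIPOQ (the hormone adiponectin) ran from 2545 to 11758 CPM (the count relative to the scaled size of the library). Skeletal muscle genes, 14 of 21 in the table, were high in 3 libraries: YK_80d replicate 3 with 1.58% of counts, GS_9d replicate 3 with 1.48% and YK_9d replicate 1 with 0.315%. The 9 others had at most 0.0125%. The 3 libraries are left out as an alternative beside the counts below. No pair of libraries within a group agreed within sampling noise, so each was counted as 1 sample. The GS_80d libraries were closer to each other than those of the other groups, with Spearman correlations across genes of 0.976 to 0.98 per pair, against 0.926 to 0.964, and a chi-square per degree of freedom of 35.4 to 47.6, against 85.6 to 130.1. Whether they come from separate animals is not given in the labels, and every result on GS_80d rests on them.

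As background, each ribosome pairs a small subunit, which reads the messenger RNA, with a large subunit, which forms the peptide bonds. Most ribosomal proteins are needed in about equal number with one another. The messenger RNAs of ribosomal proteins share a pyrimidine-rich start (the TOP motif) through which mTOR signalling controls their translation. Many of the genes have processed pseudogene copies, and reads may have been split between a gene and its copies in the counting. Levels of different genes were not compared, since CPM is not per transcript length.

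The summed ribosomal protein messages were lowest in all 3 GS_80d libraries. They took 3.37%, 3.41% and 3.06% of all counts in GS_80d, 5.88%, 5.14% and 7.18% in YK_80d, 4.57%, 6.54% and 5.05% in GS_9d, and 4.89%, 4.14% and 7.21% in YK_9d. No GS_80d library overlapped any library of the other groups, while the 3 other groups overlapped one another. The means were 3.28% ± 0.196 in GS_80d, 6.07% ± 1.03 in YK_80d, 5.39% ± 1.03 in GS_9d and 5.41% ± 1.60 in YK_9d (SD, n = 3 each). The GS_80d mean was 0.541 of the YK_80d mean and 0.609 of the GS_9d mean, whereas GS_9d stood at 0.995 of YK_9d and YK_80d at 1.12 of YK_9d. In whole tissue, fewer cells of a type and less of a message per cell cannot be told apart.

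**Figure D1:**
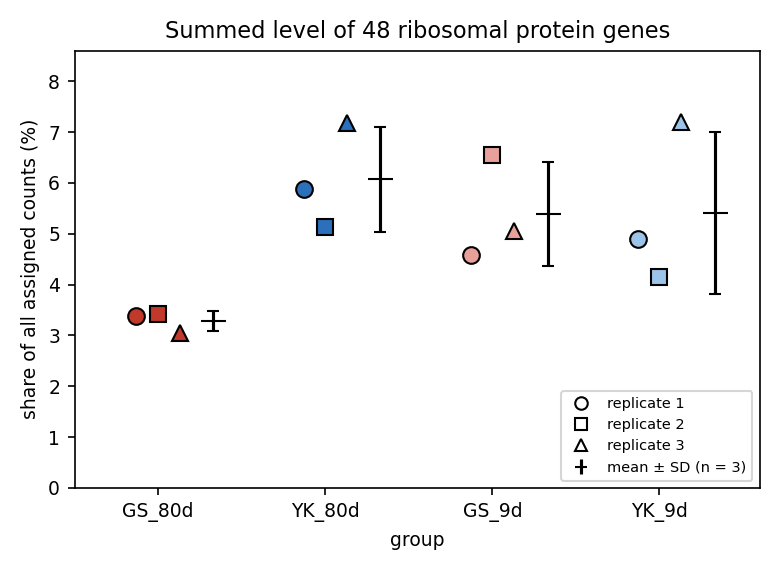
Share of all counts taken by the 48 ribosomal protein genes in each library (y axis, %), by group (x axis); symbols mark the replicate number and the bar beside them the mean ± SD of 3 libraries. The GS_80d libraries sit between 3.06% and 3.41%, below all 9 other libraries.

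The genes moved as a block across libraries. Of the 45 genes of the subunits and the stalk, 42 had their 3 lowest levels in the 3 GS_80d libraries, and the exceptions were RPS25, RPS27A and RPSA. The highest level of each of the 45 fell in 1 of 3 libraries: YK_9d replicate 3 for 21 genes, YK_80d replicate 3 for 19 and GS_9d replicate 2 for 5. The summed small-subunit genes stood to the summed large-subunit genes in a ratio of 1.17 to 1.26 in every library, so both subunits varied together. Within GS_80d the libraries were close: the median SD of log2 CPM over the genes was 0.065, against 0.26 for all genes tested. It was 0.409 in YK_80d (0.44 for all genes), 0.37 in GS_9d (0.358) and 0.544 in YK_9d (0.426). In the groups other than GS_80d the genes thus spread between libraries about as much as all genes did, narrower in YK_80d and wider in GS_9d and YK_9d.

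**Figure D2:**
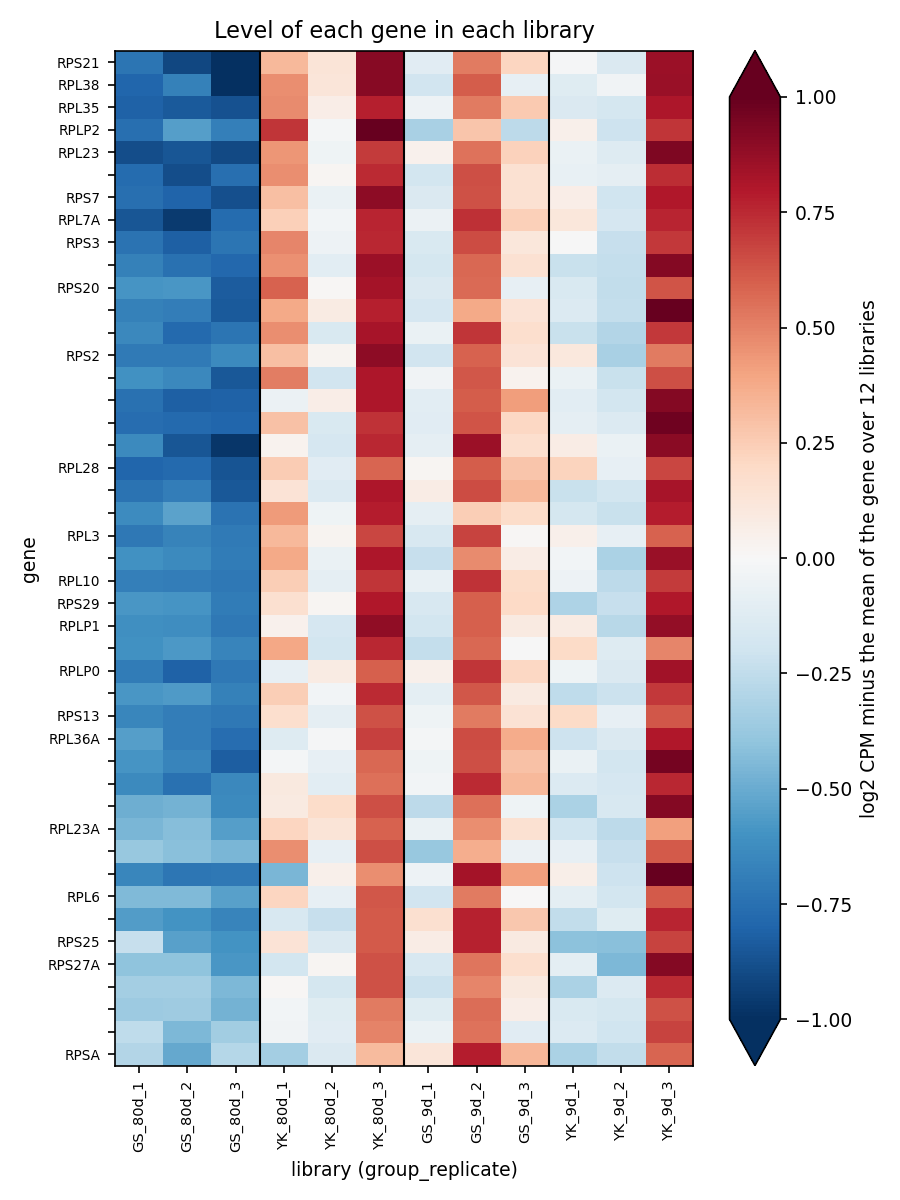
Level of each of the 45 subunit and stalk genes (rows) in each of the 12 libraries (columns), as log2 CPM minus the mean of that gene over the 12 libraries. Genes described in the text carry their names. Rows run in the order of the log2 difference between GS_80d and YK_80d, with the most negative at the top; the GS_80d columns are low from top to bottom, and YK_80d replicate 3, GS_9d replicate 2 and YK_9d replicate 3 are high.

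At 80 d, ribosomal protein messages were lower in GS than in YK back fat. Of the 47 genes that passed the filter on low counts, 14 were called lower and none higher, at an adjusted p under 0.05 in edgeR's quasi-likelihood test, and 2.95% of all 15425 genes tested were called lower. A further count, that of an unadjusted p under 0.05 with a lower level, was 39 of 47, against 12.6% of all genes. The log2 difference, GS minus YK, was negative for 46 of the 47 (51.2% of all genes), with a median of -1.06, against -0.02 over all genes. In 44 of the 47 the GS_80d libraries were all below the YK_80d libraries, which held for 14.4% of all genes. The 14 called genes were 7 of 24 in the small subunit, 6 of 18 in the large and 1 of 3 in the stalk, with median differences of -1.07, -1.04 and -0.98 for the whole groups. How many genes passed rested on single libraries: the count was 0 without YK_80d replicate 3, 0 without any 1 of the GS_80d libraries, 3 without YK_80d replicate 1 and 19 without YK_80d replicate 2. Leaving out the 3 muscle-bearing libraries gave 0 (median -0.75). Of those 3, only YK_80d replicate 3 belongs to the groups compared, and without it alone the median was -0.76. Leaving out YK_80d replicates 2 and 3, which had the most T cell transcripts, left 1 YK_80d library and a median of -0.88. The median stayed between -1.19 and -0.76 with each library left out in turn. DESeq2 called 36 (1252 of 18969 genes lower in all), the 6 libraries of the comparison alone gave 24 (388 of 14614), and a fit with the replicate number as a block gave 7 (373 of 15425). Lower calls over all genes were 455 with all libraries, and 80 to 137 without YK_80d replicate 3 or 1 of the GS_80d libraries. They were 106 when the muscle-bearing libraries were dropped. Without YK_80d replicate 1 they stayed at 455 (of 15869 genes), so the fall to 3 ribosomal protein genes came without a fall over all genes, and without YK_80d replicate 2 they were 457 (of 15877).

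Lists for other cell types and stress also differed between these groups; over all genes, edgeR called 2.95% lower and 3.17% higher in GS. T and NK cell genes (22 of 25 in the table, 7 called lower in GS, none at 0 in all libraries of either group) summed to 0.0172% to 0.0214% of counts in GS_80d and 0.0284% to 0.0936% in YK_80d. Heat shock genes (14 of 15 in the table, 5 called lower) summed to 0.316% to 0.338% in GS_80d and 0.656% to 1.07% in YK_80d, and adipocyte genes (5 of 12 called higher) to 2.58% to 2.81% in GS_80d and 1.49% to 1.74% in YK_80d. Macrophage and myeloid genes (14 of 15 in the table, 3 called lower) summed to 0.0240% to 0.0447% in GS_80d (MARCO at 0) and 0.0283% to 0.0665% in YK_80d, and cell cycle genes (17 of 22, 2 called lower) to 0.00610% to 0.00816% in GS_80d and 0.00511% to 0.0277% in YK_80d. Mast cell genes (6 of 9, 1 called lower) summed to 0.00261% to 0.00479% in GS_80d and 0.00638% to 0.0134% in YK_80d. Of those 6 genes, 5 nonetheless had a positive log2 difference, GS minus YK. The part of these lists in the ribosomal protein difference was not tested. By library, T and NK cell genes took 0.0284%, 0.0730% and 0.0936% in YK_80d replicates 1, 2 and 3, beside ribosomal protein shares of 5.88%, 5.14% and 7.18%. In YK_9d replicate 3, with a ribosomal protein share of 7.21%, they took 0.00739% and heat shock genes 0.333%.

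In the small subunit, RPS21 (ENSSSCG00000021825), a protein of eukaryotic ribosomes without a bacterial counterpart, had the most negative difference. It stood at 235, 207 and 189.9 CPM in GS_80d, against 488, 425 and 733 CPM in YK_80d. The groups did not overlap, and the log2 difference was -1.38 ± 0.31 (SE; edgeR adjusted p = 0.0253), a level in GS 0.384 of that in YK. At 9 d the same gene had 361, 559 and 453 CPM in GS and 387, 352 and 706 CPM in YK, groups that overlapped.

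RPS2, which lines the channel through which messenger RNA enters, had 1124, 1124 and 1179.6 CPM in GS_80d and 2265, 1872 and 3410.2 CPM in YK_80d. All 3 GS_80d values were below all 3 YK_80d values, and the log2 difference was -1.14 ± 0.30 (edgeR adjusted p = 0.0457).

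RPS3, RPS7, RPS13 and RPS20 of the small subunit were also called lower. Their log2 differences ran from -1.24 for RPS7 to -0.96 for RPS13. RPS3 is a protein of the messenger RNA entry site with known roles in DNA repair, and RPS7 can bind MDM2, the brake on p53.

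RPS29, mutated in some people with Diamond-Blackfan anaemia, did not pass the threshold but kept close to the block in all libraries. It had 337, 336 and 311 CPM in GS_80d and 564, 511 and 881 CPM in YK_80d. The groups did not overlap, and the log2 difference was -0.99 ± 0.33 (edgeR adjusted p = 0.0920).

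RPSA, which doubles as a receptor for the matrix protein laminin, lay at the small end of a continuous range of differences. It had 961, 827 and 967 CPM in GS_80d and 933, 1064 and 1468 CPM in YK_80d. The groups overlapped, and the log2 difference of -0.33 ± 0.29 was the smallest in size of the 45 subunit and stalk genes (edgeR adjusted p = 0.539). At 9 d RPSA had 1282, 2026 and 1487 CPM in GS and 945, 994 and 1768 CPM in YK, a difference of 0.37 ± 0.29 (edgeR adjusted p = 0.638), with overlap.

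In the large subunit, RPL35 (ENSSSCG00000034227), a protein at the exit of the tunnel through which the new chain leaves, had 542, 531 and 521 CPM in GS_80d and 1320.4, 998 and 1631 CPM in YK_80d. The lowest YK_80d library was above the highest GS_80d library. The log2 difference was -1.31 ± 0.30 (edgeR adjusted p = 0.0276).

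RPL38, which in mouse embryos is needed for translation of homeobox messages, had 201, 218 and 167 CPM in GS_80d and 480.1, 379 and 655 CPM in YK_80d. Its log2 difference was -1.37 ± 0.33 (edgeR adjusted p = 0.0305), without overlap. RPL23, another protein that can bind MDM2, had 560.0, 570.4 and 552 CPM in GS_80d and 1401, 1002 and 1682 CPM in YK_80d. That difference was -1.28 ± 0.31 (edgeR adjusted p = 0.0323), and the 3 GS_80d values lay close together below the YK_80d values.

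RPL28 (ENSSSCG00000039460), a large-subunit protein without a bacterial counterpart, had 407, 413 and 389 CPM in GS_80d and 842, 654 and 1059 CPM in YK_80d, a log2 difference of -1.08 ± 0.26 (edgeR adjusted p = 0.0323). RPL7A had 857, 797 and 906 CPM in GS_80d and 1829, 1518 and 2619 CPM in YK_80d, a difference of -1.22 ± 0.31 (edgeR adjusted p = 0.0381). In both genes the groups did not overlap. RPL3, a protein near the peptide-bond centre, completed the 6 called genes with a difference of -1.06 ± 0.28 (edgeR adjusted p = 0.0457).

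RPL6, RPL23A and RPL10 are large-subunit genes that did not pass the threshold. RPL6 had 1352, 1353 and 1262 CPM in GS_80d and 2133, 1732 and 2823 CPM in YK_80d, a log2 difference of -0.75 ± 0.29 (edgeR adjusted p = 0.137). RPL23A, at the tunnel exit like RPL35, had 695, 710.2 and 649 CPM in GS_80d and 1107, 1042 and 1431 CPM in YK_80d, a difference of -0.80 ± 0.25 (edgeR adjusted p = 0.0753). RPL10, which joins the large subunit late in its assembly, followed the block closely: it had 1250.0, 1242 and 1225 CPM in GS_80d and 2386, 1892 and 3304 CPM in YK_80d, a difference of -1.03 ± 0.31 (edgeR adjusted p = 0.0735). In all 3 genes the groups did not overlap.

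The P stalk recruits the elongation factors to the large subunit; RPLP0 forms its base, and RPLP1 and RPLP2 are the acidic proteins attached to it. RPLP2 (ENSSSCG00000012842) had 746, 862 and 785 CPM in GS_80d and 2072, 1246 and 2601 CPM in YK_80d, a log2 difference of -1.31 ± 0.32 (edgeR adjusted p = 0.0342). RPLP0 had 1294, 1200.5 and 1281 CPM in GS_80d and 1985, 2221 and 3182 CPM in YK_80d, a difference of -0.97 ± 0.31 (edgeR adjusted p = 0.0825). RPLP1 had 1062, 1056 and 992 CPM in GS_80d and 1675, 1449.6 and 2999.9 CPM in YK_80d, a difference of -0.98 ± 0.35 (edgeR adjusted p = 0.118). All 3 were lower in each GS_80d library than in any YK_80d library, and only RPLP2 passed the threshold; the differences among the 3 were not tested.

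At 9 d no breed difference passed the test in any of these genes. Of the 47 tested, 0 were called by edgeR's quasi-likelihood test, 0 had an unadjusted p under 0.05 and 0 were called by DESeq2. Of all genes, edgeR called 1.02%, and 14.4% had an unadjusted p under 0.05. DESeq2 called 494 of 18969 genes higher and 428 lower. The median log2 difference was 0.01, with 27 genes positive and 20 negative, and none had groups without overlap, against 18.5% of all genes. The median ran from -0.19 without GS_9d replicate 2 to 0.36 without YK_9d replicate 3 (where 3 genes had an unadjusted p under 0.05) when each library was left out, so its sign rested on single libraries. Over the 45 subunit and stalk genes the differences ran from -0.32 for RPLP2 to 0.37 for RPSA, with SEs of 0.25 to 0.35. The libraries inside each breed spread widely: RPL10, for example, had 1909, 3318 and 2279 CPM in GS_9d and 1942, 1674 and 3263 CPM in YK_9d.

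**Figure D3:**
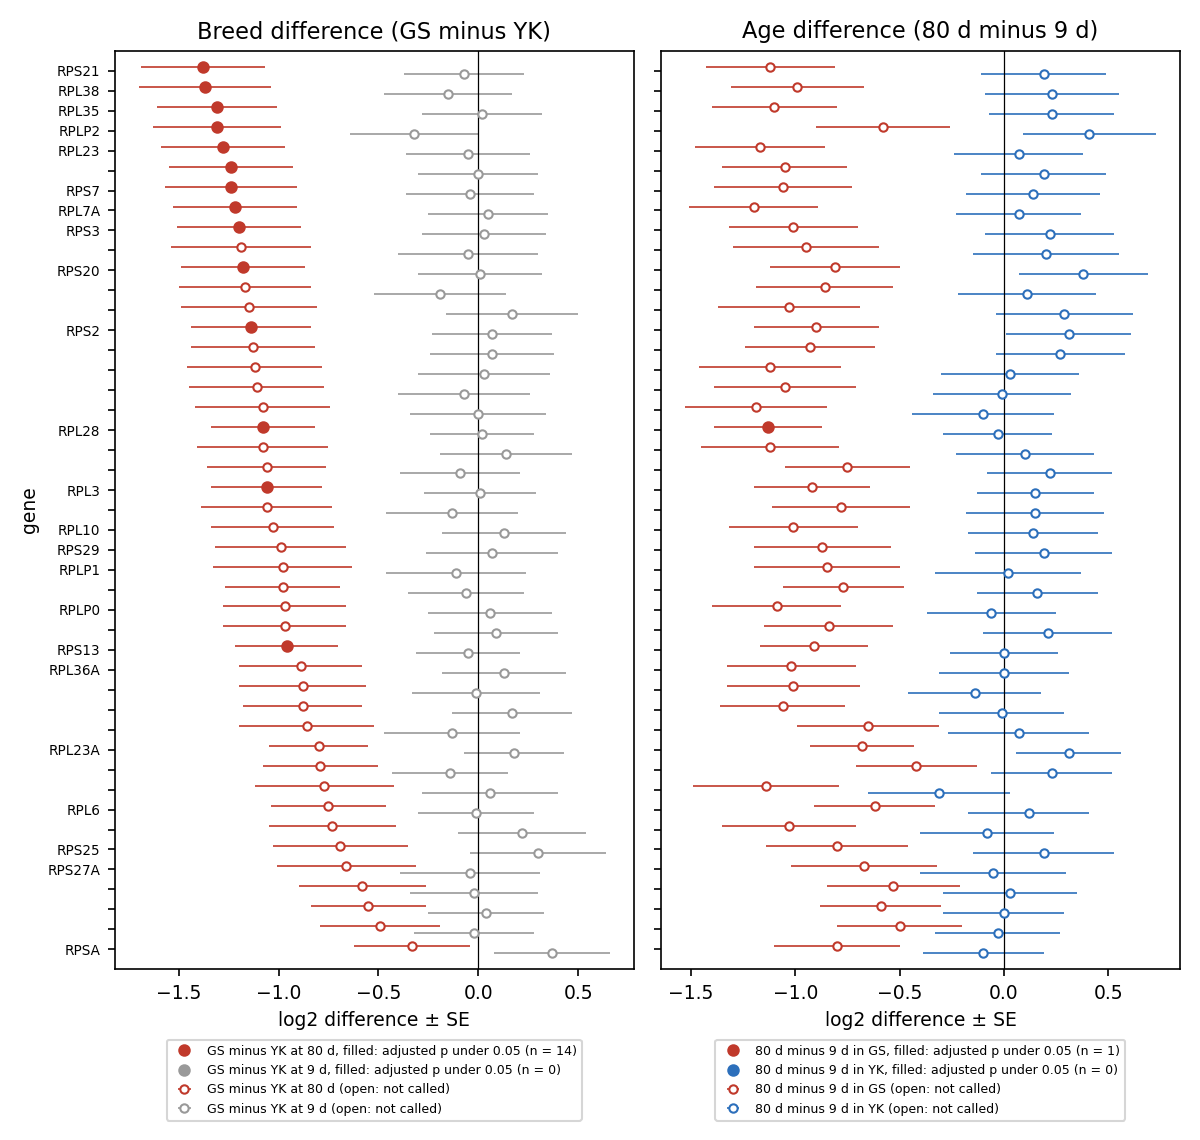
Log2 difference ± SE (x axes) of the 45 subunit and stalk genes (rows, ordered by the breed difference at 80 d, with names for genes described in the text). The left panel gives GS minus YK at 80 d (red) and at 9 d (grey), and the right panel 80 d minus 9 d in GS (red) and in YK (blue); filled points are genes past an adjusted p of 0.05, 14 and 0 on the left, 1 and 0 on the right.

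With age, nearly all genes were lower in every GS_80d library than in any GS_9d library, but few differences passed the test. In GS, 1 gene was called lower by edgeR, RPL28, against 1.27% of all genes, and 37 were lower at an unadjusted p under 0.05 (10.5% of all genes). All 47 differences, 80 d minus 9 d, were negative (50.3% of all genes) with a median of -0.93, and in 46 the GS_80d libraries were all below the GS_9d libraries (16.5% of all genes). RPL3L was the exception. RPL28 had 407, 413 and 389 CPM in GS_80d and 717, 1075 and 854 CPM in GS_9d, a log2 difference of -1.13 ± 0.26 (edgeR adjusted p = 0.0427). This call was lost without any 1 of the 6 libraries and with the replicate block. Lower calls over all genes were 196 with all libraries, 32 to 66 without 1 of the 6 and 153 with the block. DESeq2 called 26 of the members lower (791 of 18969 over all genes), and a fit to the 6 libraries alone 25 (511 of 14547). A fit without YK_9d replicates 2 and 3, which had the most skin transcripts, called 6 (211 of 16547).

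RPL7A, RPL23 and RPL35 came next. RPL7A had 857, 797 and 906 CPM in GS_80d and 1484, 2566 and 1825 CPM in GS_9d, a log2 difference of -1.20 ± 0.31 (edgeR adjusted p = 0.0613). Of the stalk genes RPLP2 had the smallest difference, with 746, 862 and 785 CPM in GS_80d and 1009, 1526 and 1049.7 CPM in GS_9d, a difference of -0.58 ± 0.32 (edgeR adjusted p = 0.330). This comparison and the breed comparison at 80 d share the GS_80d libraries, so they are not separate evidence of a low level there. Macrophage and myeloid genes (14 of 15 in the table, 4 called lower with age in GS) summed to 0.0240% to 0.0447% in GS_80d (MARCO at 0) against 0.0789% to 0.0872% in GS_9d. Progenitor and stromal genes (13 of 14, 2 called lower) summed to 2.54% to 2.70% in GS_80d (DLK1 at 0) and 2.82% to 5.53% in GS_9d. The summed shares of the lists for cell cycle, erythroid and B and plasma cells, with 0 genes called, also did not overlap. Within each list the log2 differences went both ways. They were 1 positive and 16 negative for cell cycle, 3 and 2 for erythroid, and 9 and 5 for B and plasma cells. Cell cycle genes (17 of 22) took 0.00610% to 0.00816% in GS_80d and 0.00893% to 0.0142% in GS_9d, erythroid genes (5 of 8) 0.0184% to 0.0220% in GS_80d and 0.0354% to 0.0376% in GS_9d (SLC4A1 at 0), and B and plasma cell genes (14 of 15) 0.00481% to 0.00765% in GS_80d and 0.00290% to 0.00338% in GS_9d (POU2AF1 at 0). The share of all genes called lower was 1.27%, and the part of these lists in the result was not tested.

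In YK, 0 of the 47 were called by edgeR between 80 d and 9 d, 0 had an unadjusted p under 0.05, and DESeq2 called 0. Of all genes, edgeR called 1.21%, and 13.5% had an unadjusted p under 0.05. DESeq2 called 550 of 18969 genes higher and 346 lower. The median log2 difference was 0.12, with 32 genes positive and 15 negative, and no gene had groups without overlap (15.8% of all genes). The median ran from -0.08 without YK_80d replicate 3 to 0.48 without YK_9d replicate 3 when each library was left out, and was -0.26 once the muscle-bearing libraries were dropped, so its sign and size rested on single libraries. Among the 45 subunit and stalk genes the largest was that of RPLP2, which had 2072, 1246 and 2601 CPM in YK_80d and 1305, 1089.9 and 2071 CPM in YK_9d, a difference of 0.41 ± 0.32 (edgeR adjusted p = 0.672). RPL23A, with the next smallest adjusted p, differed by 0.31 ± 0.25 (edgeR adjusted p = 0.684).

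Whether the age difference itself differed between breeds was tested by the breed by age interaction, and no gene passed. All 47 interaction terms were negative (49.8% of all genes) with a median of -1.04, and 31 were negative with an unadjusted p under 0.05 (6.37% of all genes). By edgeR and by DESeq2, 0 of them were called. Over all genes edgeR called 0.0648%, and DESeq2 called 136 of 18969 positive and 256 negative. The lowest adjusted p was that of RPL35, 0.296, at -1.33 ± 0.42 on the log2 scale. The lower level in GS_80d is therefore not shown, gene by gene, to be a breed-dependent change with age.

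Around the shared movement, single genes kept their own pattern. Each gene was set against the median of the 47 tested genes in the same library, as log2 CPM. RPL10 and RPS29 were among those with the smallest SD over the 12 libraries around that median, 0.08 and 0.09. Their messages stood in nearly fixed proportion to the block from library to library.

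RPL3L, RPS27L and RPSA had the largest, 2.29, 0.47 and 0.31. Relative to its own mean over the 12 libraries, RPSA averaged 0.33 in GS_80d and -0.37 in YK_80d, with 0.19 in GS_9d and -0.14 in YK_9d. The relative level of RPSA was thus higher in GS than in YK at both ages. RPS27L showed 0.54 in GS_80d, -0.59 in YK_80d, 0.14 in GS_9d and -0.10 in YK_9d, the same order. These relative levels were not tested.

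RPS27L, a p53-inducible relative of RPS27, did not differ between the breeds at 80 d beyond its error. It had 85.0, 69.3 and 78.4 CPM in GS_80d and 51.7, 69.7 and 101 CPM in YK_80d, a log2 difference of 0.07 ± 0.29 (edgeR adjusted p = 0.918). The groups overlapped, and it was the only tested member with a positive difference at 80 d. At 9 d it had 98.3, 132 and 104 CPM in GS and 67.0, 78.7 and 132 CPM in YK.

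RPL3L (ENSSSCG00000032657), the paralogue that replaces RPL3 in heart and skeletal muscle, was low except in the libraries with muscle transcripts. It had 0.345, 0.095 and 0.554 CPM in GS_80d, 0.319, 0.437 and 24.8 CPM in YK_80d, 0.855, 0.287 and 26.0 CPM in GS_9d, and 4.39, 0.375 and 1.38 CPM in YK_9d. A count of 3 fragments corresponds to 0.185 to 0.249 CPM over the libraries. The 3 highest values were in the 3 libraries with the most skeletal muscle transcripts: YK_80d replicate 3, GS_9d replicate 3 and YK_9d replicate 1. The breed difference at 80 d of -4.68 ± 2.16 did not pass (edgeR adjusted p = 0.222), and over the alternatives it ran from -5.24 to 0.05. RPL10L, a copy of RPL10 known from the testis, was at 0 in all 12 libraries.

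**Figure D4:**
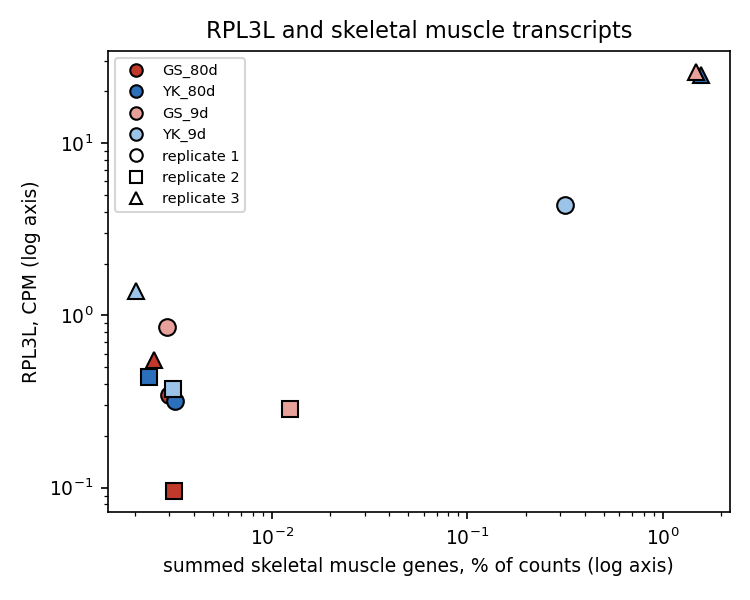
RPL3L in CPM (y axis, log scale) against the summed skeletal muscle genes as a percentage of counts (x axis, log scale), 1 point a library, coloured by group with the symbol giving the replicate. The 3 libraries to the right, at 0.315% to 1.58% muscle genes, have 4.39 to 26.0 CPM, and the 9 others have 0.095 to 1.38 CPM.

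Other proteins tied to the ribosome lie outside the symbol rule. RACK1, a signalling scaffold on the small subunit, had 770.4, 799 and 808 CPM in GS_80d and 1321, 1242 and 1548 CPM in YK_80d, a log2 difference of -0.79 ± 0.25 (edgeR adjusted p = 0.0812) without overlap. RPL36AL, a close copy of RPL36A, showed -0.92 ± 0.32 (edgeR adjusted p = 0.110). RPL7L1 and RPL26L1 differed by -0.21 and 0.01 with overlapping groups.

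FAU, which encodes RPS30 fused to a ubiquitin-like protein, did not follow the block. It had 108, 107 and 47.1 CPM in GS_80d, 38.7, 71.7 and 29.2 CPM in YK_80d, 89.4, 49.8 and 117 CPM in GS_9d and 39.4, 107 and 53.1 CPM in YK_9d. In the 3 libraries where the block was highest, FAU was at 29.2, 49.8 and 53.1 CPM, against 38.7 to 117 CPM in the other libraries. The groups overlapped at 80 d, and its difference of 0.91 ± 0.48 did not pass (edgeR adjusted p = 0.271).

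Translation factors, whose messages mostly carry the same TOP motif, were partly lower too. Of 23 tested at 80 d, edgeR called 4 lower in GS (2.95% of all genes) and none higher. DESeq2 called 8 lower (1252 of 18969 over all genes). In edgeR 19 differences were negative (51.2% of all genes), with a median log2 difference of -0.56. EIF3D and EIF3F, subunits of the initiation factor that prepares the small subunit, differed by -1.10 ± 0.22 (edgeR adjusted p = 0.0136) and -1.12 ± 0.23 (edgeR adjusted p = 0.018). EIF3F had 86.8, 88.1 and 84.5 CPM in GS_80d and 187, 141 and 235 CPM in YK_80d. EEF1D, which recharges the elongation factor, differed by -1.14 ± 0.29 (edgeR adjusted p = 0.0385). With age in GS, edgeR called 2 lower (1.27% of all genes) and DESeq2 5 (791 of 18969 over all genes). The edgeR calls were EIF3F and EIF3D, at -1.22 ± 0.23 and -0.98 ± 0.21 (edgeR adjusted p = 0.0201 and 0.0355), and the list's median was -0.57.

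Genes that build ribosomes had few calls in edgeR, which called 2.95% of all genes lower. Of 36 tested biogenesis genes, edgeR called 1 lower in GS at 80 d and DESeq2 5 (1252 of 18969 over all genes). At an unadjusted p under 0.05 in edgeR, 8 of the 36 were lower (12.6% of all genes). In 11 of the 36 the GS_80d libraries were all below the YK_80d libraries (14.4% of all genes), and in 1 they were all above. The edgeR call was FBL, the fibrillarin that methylates ribosomal RNA, at -1.14 ± 0.23 (edgeR adjusted p = 0.0146), and the list's median was -0.28. Of 14 RNA polymerase I genes edgeR called 1 lower and DESeq2 3. The edgeR call was POLR1D, at -0.83 ± 0.21 (edgeR adjusted p = 0.0372), and the median of the 14 was -0.18. At an unadjusted p under 0.05 in edgeR, 4 of the 14 were lower and 1 was higher. With age in GS, edgeR called 1 of those 14 lower (1.27% of all genes) and DESeq2 2 (791 of 18969 over all genes). The edgeR call was POLR1E, at -0.90 ± 0.18 (edgeR adjusted p = 0.0225). Of the 14, 9 differences were negative there, and 4 of them had an unadjusted p under 0.05 (10.5% of all genes). Genes of mTOR signalling and translation control, 24 tested, had 0 calls at 80 d by edgeR and 2, both higher in GS, by DESeq2 (1025 of 18969 over all genes), with a median of 0.16. At an unadjusted p under 0.05 in edgeR were 6 of the 24 (23.8% of all genes), 5 of them higher in GS and 1 lower. Over all genes 1733 of 15425 were higher and 12.6% lower at that threshold. The medians of these lists were closer to 0 than the -1.06 of the ribosomal protein genes; the difference between the lists was not tested.

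The mitochondrial ribosome is a separate machine with its own proteins. Of its 63 tested genes at 80 d, edgeR called 2 lower in GS (2.95% of all genes) and none higher. DESeq2 called 8 lower (1252 of 18969 over all genes) and 2 higher (1025 of 18969). Those called by edgeR were MRPL28 at -1.11 ± 0.28 and MRPS25 at -0.84 ± 0.22 (edgeR adjusted p = 0.0385 and 0.0412), and the list's median was -0.17. Small nuclear-encoded subunits of the respiratory chain, 36 tested, had 1 call by edgeR and 3 by DESeq2, the first being NDUFB10, at -1.03 ± 0.28 (edgeR adjusted p = 0.0486), and a median of -0.19. In GS with age the medians were -0.32 and -0.39, and edgeR called 1.27% of all genes lower. In the mitochondrial ribosome edgeR called 1 and DESeq2 5 (791 of 18969 lower over all genes). The edgeR call was MRPS6, at -1.20 ± 0.28 (edgeR adjusted p = 0.0441). Of the 63 differences 54 were negative (50.3% of all genes), and 16 were lower at an unadjusted p under 0.05 in edgeR (10.5% of all genes). For 31 of the 63 the GS_80d libraries were all below the GS_9d libraries (16.5% of all genes). In the chain edgeR called 0 and DESeq2 1, and 11 of 36 were lower at an unadjusted p under 0.05 in edgeR (10.5% of all genes). With age in YK, edgeR and DESeq2 each called 1 of the 63 mitochondrial ribosome genes lower. Over all genes edgeR called 1.21% in either direction, and DESeq2 called 346 of 18969 lower. The edgeR call was MRPS34, at -0.94 ± 0.20 (edgeR adjusted p = 0.0461).

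Library by library, the translation factors, the mitochondrial ribosome and the respiratory chain were also high where the ribosomal proteins were high. The median log2 deviation of the 45 genes from their own means was -0.64, -0.68 and -0.71 in GS_80d, 0.25, -0.06 and 0.74 in YK_80d, -0.10, 0.60 and 0.15 in GS_9d and -0.10, -0.18 and 0.76 in YK_9d. In YK_80d replicate 3, GS_9d replicate 2 and YK_9d replicate 3, the mitochondrial ribosome stood at 0.31, 0.45 and 0.42 and the small respiratory chain subunits at 0.47, 0.48 and 0.35. In the GS_80d libraries the mitochondrial ribosome stood at -0.10, -0.17 and -0.15 and the chain at 0.01, -0.41 and -0.14. The part of transcript length in these patterns was not tested.

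**Figure D5:**
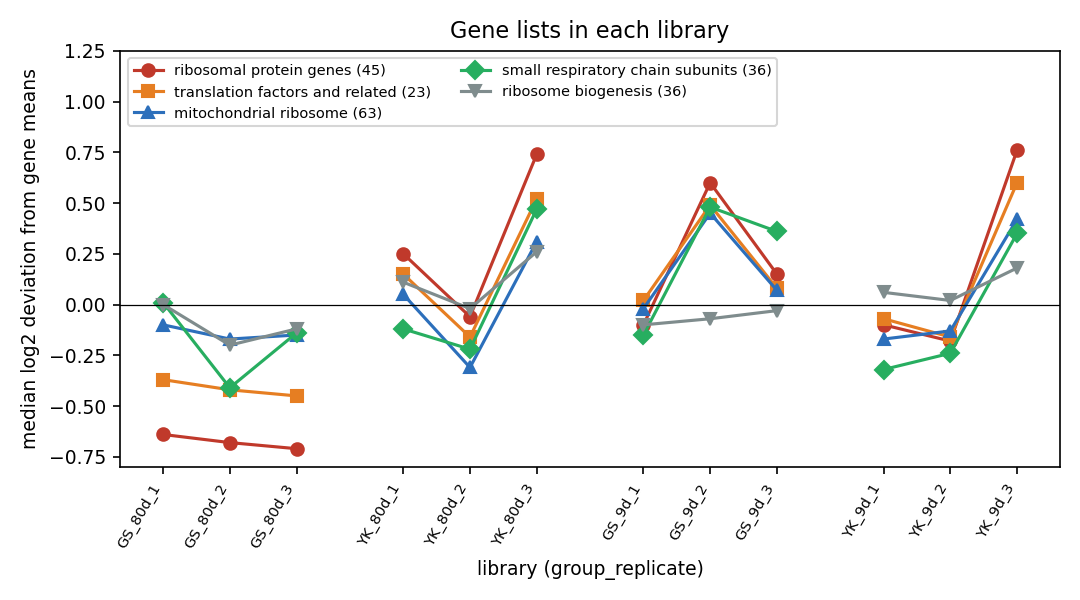
Median log2 deviation from each gene's mean over 12 libraries (y axis), by library (x axis), for the 45 ribosomal protein genes and 4 other lists. The ribosomal protein points lie at -0.64 to -0.71 in the GS_80d libraries, lower than the other lists plotted there, and reach 0.60 to 0.76 in 1 library of each other group.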

How the data were processed

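RNA-seq of back fat from 12 samples was analysed. TRIzol extraction of total RNA preceded stranded KAPA library preparation, per the labels' protocols. Expected counts per gene were deposited by the authors in 1 table, not scaled between libraries. For the aligner, counting tool and annotation, the sources used here give nothing; per the submitters' processing notes the build is mm10, a mouse build, although the gene IDs are pig IDs, so no coordinates are printed. Values pile up at multiples of about 3.77, so a fragment adds about 3.77 units; they were tested as deposited, and divided by that step as an alternative. Use of strand in the counting is likewise not given, so overlapping genes may share reads.

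Symbols came from a supplied table, which names 14692 of the 24358 IDs; 5389 IDs are at 0 everywhere. The 15425 genes kept by filterByExpr were scaled with TMM (factors 0.888 to 1.10) and fitted in edgeR 4.0.16 (R 4.3.3, limma 3.58.1, statmod 1.5.0) with a robust quasi-likelihood model over the 4 groups (8 residual degrees of freedom, common dispersion 0.267). Tests were two-sided and adjusted by Benjamini-Hochberg over all genes tested, with a threshold of 0.05. The SE is the log2 difference divided by the square root of F. The fit was also run on simulated counts. Their genes varied independently, unlike the block described here, and no result rests on that run. DESeq2 1.42.0, other scalings, no filter, fits to the libraries compared, a replicate block and each library left out were the alternatives. Leaving out the libraries with muscle, T cell or skin transcripts was added after the data had been seen.

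The members and lists were chosen with earlier results of these data known. Genes named with values were, by rule, up to 8 called members per comparison or the 2 with the smallest adjusted p, the 4 with the highest mean CPM, the stalk genes, RPSA and the paralogues, the 3 with the largest and the 3 with the smallest spread around the block, and up to 3 called genes per comparison of the other lists. RPS3, RPS7, RPS13, RPS20, RPL3, RPS25 and RPS27A were added to the named genes once their values had been seen. Same-numbered replicates did not deviate together (r from -0.224 to 0.244 over 18 pairs), so the numbers were not taken to pair the samples. Some genes that the rule would name are not reported here.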

Additional observations from a re-analysis of the deposited data

How the results depend on the processing

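At 80 d, the 14 ribosomal protein genes lower in GS became 36 with DESeq2 and 24 in a fit to the 6 libraries compared. They became 23 without YK_9d replicates 2 and 3, 7 with the replicate block and 0 without the 3 muscle-bearing libraries. With YK_80d replicates 2 and 3 left out, 1 YK_80d library remained and the median log2 difference was -0.88. Lower calls over all genes moved too: 455 in the reported fit, 1252 with DESeq2, 388 in the fit to 6 libraries and 437 without those YK_9d replicates. They were 373 with the block and 106 without the muscle-bearing libraries. The 14 ranged from 0 to 19 with each library left out, and the median log2 difference from -1.19 to -0.76, or -0.75 without the libraries with muscle transcripts. With age in GS, the 1 gene became 26 with DESeq2, 25 in a fit to the libraries compared, 6 without YK_9d replicates 2 and 3, and 0 without the libraries with muscle transcripts, with the replicate block and with each library left out (0 to 0), with medians from -1.06 to -0.72. Over all genes the lower calls there were 196 in the reported fit, 791 with DESeq2, 511 in the fit to the libraries compared, 153 with the block and 211 without those YK_9d replicates. The replicate numbers did not pair the samples, so a call lost under the block is not read as a weaker effect. In all settings run, no gene was called at 9 d, with age in YK or in the interaction. Of the other values for named genes, 1509 kept their side of the threshold, 70 lost a call, 31 gained one and none reversed a call. As a share of counts that are not mitochondrially encoded, the genes took 3.79%, 3.76% and 3.50% in GS_80d and 8.33% in YK_80d replicate 3, shifts of more than the replicate SD. The causes of these changes were not tested. Fits that leave some libraries out also have fewer libraries, and the part of that was not tested either. With 3 libraries a group, SEs of the 45 subunit and stalk genes were 0.25 to 0.35 between groups and 0.35 to 0.5 in the interaction, and those of RPL3L 1.90 to 2.86, which limits what differences could be detected.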
